A study of Mus musculus with 9 samples.

Results

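The genes described here are those named as proteins of the cytosolic ribosome. They were taken from the read count table by symbol: Rpl or Rps followed by a number with at most 1 further letter (a, x, l or y), plus *Rplp0*, *Rplp1*, *Rplp2* and *Rpsa*, with symbols marked as pseudogenes (-ps) left out. The rule found 83 of the 55416 listed genes, and the rule itself uses no measured value, although this family was picked with earlier results of these data known. Of these members, 79 had enough reads to be tested, 47 of the large and 32 of the small subunit, and the other 4 are accounted for with the paralogs. The annotation used (GENCODE M21) gives 77 of the 79 as protein-coding, whereas *Rps4l*, *Rpl6l* and the untested *Rpl32l* are processed pseudogenes in it.

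The cells were AdvSca1-SM cells, Sca1-expressing progenitors of the arterial adventitia that descend from smooth muscle. They had been sorted as YFP+ and Sca1+ cells from the aorta and carotid arteries of pooled 8-week-old SM22α-Cre-YFP mice, whose reporter marks any cell that has expressed the smooth muscle gene *Tagln* (SM22α), and had been subcultured. The stem cell medium held 10% FBS, 1 ng/mL basic fibroblast growth factor (bFGF) and 5 ng/mL epidermal growth factor (EGF). Stem cells were kept in stem cell medium, and treated cells were first growth arrested for 24 hours in that medium with only 0.1% FBS. TGF cells then received 5 ng/mL TGF-β1 in DMEM with 0.1% FBS, and Both cells received the same with 50 μM PFI-3, an inhibitor aimed at the bromodomain of the chromatin remodeler Brg1. All cells received 0.1% DMSO and were harvested after 72 hours, with 3 libraries per group. The labels carry the same protocol text for all samples, and whether the Stem libraries also passed through the growth arrest is not given in the sources used here. Basal medium, serum, bFGF and EGF, growth arrest and TGF-β1 may therefore all differ between Stem and TGF and cannot be told apart, whereas TGF and Both differ in PFI-3.

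A ribosome joins a small subunit, which reads the mRNA, to a large subunit, which makes the peptide bond, and each holds many small, mostly basic proteins around a core of ribosomal RNA. The mRNAs of these proteins belong to the most abundant of a growing cell and are known to be supplied together. Most begin with a cytosine followed by an unbroken run of pyrimidines, the 5′ terminal oligopyrimidine (TOP) motif, through which mTORC1 and the RNA-binding protein Larp1 set how well they are translated and how long they are kept. Read counts show how much of each mRNA is present, and not how well it is translated.

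The start sites of 10 members are shown, 7 with a pyrimidine run near the first base and 3 without one, because this run is the known signature of TOP mRNAs. Each window runs from 10 bases before to 20 bases from the annotated start (30 bases, 5′ to 3′ on the gene's strand, RefSeq on GRCm38.p6), and capitals mark a cytosine followed by at least 5 pyrimidines, the run nearest to the start.
Rpl35 (chr2:39005112-39005141, minus strand): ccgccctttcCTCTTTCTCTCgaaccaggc
Rpl28 (chr7:4792955-4792984, plus strand): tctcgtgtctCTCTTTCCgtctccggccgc
Rps18 (chr17:33955646-33955675, minus strand): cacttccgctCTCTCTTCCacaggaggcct
Rpl15 (chr14:18270967-18270996, minus strand): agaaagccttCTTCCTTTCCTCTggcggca
Rps6 (chr4:86857348-86857377, minus strand): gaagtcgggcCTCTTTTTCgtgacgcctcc
Rps27 (chr3:90213629-90213658, minus strand): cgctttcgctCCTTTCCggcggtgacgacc
Rps26 (chr10:128626487-128626516, minus strand): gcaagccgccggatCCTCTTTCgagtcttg
Rpl41 (chr10:128549149-128549178, minus strand): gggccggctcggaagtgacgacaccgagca
Rps28 (chr17:33824543-33824572, minus strand): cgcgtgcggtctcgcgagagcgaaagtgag
Rps15 (chr10:80292421-80292450, plus strand): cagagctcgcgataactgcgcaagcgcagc
In the windows of *Rpl35*, *Rpl28*, *Rps18*, *Rpl15*, *Rps6* and *Rps27* the capitals start at the annotated first base, and in *Rps26* 4 bases downstream of it. In the former 6 windows the base before the capitals is a pyrimidine too, so that the capitals mark the stretch only from the annotated start on. The windows of *Rpl41*, *Rps28* and *Rps15* hold no such run, and *Rpl41* and *Rps28* had the largest changes between Stem and TGF given below.

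A start table was at hand for 61 of the 83 members. A run of this kind began within 10 bases of an annotated start in 34 of those 61 members (55.7%), against 5910 of all 27025 genes with a window (21.9%). With at least 8 pyrimidines after the cytosine the shares were 29.5% of the members and 6.07% of all genes. Annotated starts can lie some bases away from the start a cell uses, so a window without a run says only that these letters are not there. As a description, the median log2 fold change from Stem to TGF was 0.41 over 32 tested members, and 0.43 over the 25 with a window but no run.

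In the 300 bases around the start (250 before and 50 after, both strands searched), the letters CCGGAAG, a core bound by ETS-family factors such as GABP, were found in 25 of 61 members (41%) and in 9.93% of all genes with a window. GGGCGG, the GC box of SP factors, was in 59% of the members and 38.2% of all genes, and AAGATGG, a core bound by YY1, was in 14.8% and 7.28%. CACGTG, the E-box bound by Myc, was in 9.84% of the members and 8.09% of all genes, and TATAAA was in 11.5% and 15.7%. The last 3 letters of CCGGAAG are the first 3 of AAGATGG, so that 1 stretch can hold both. These are matches of letters and not measured binding.

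The libraries held between 35686291 and 47741128 counts, and the 14879 genes with enough reads were tested together. Hepatocyte markers (5 genes, looked at because the labels' extraction text names hepatic tissue) were at or under the floor of 3 counts in every group. The summed level of 6 progenitor markers was 54280 to 62690 normalized counts in Stem, 12790 to 12940 in TGF and 12710 to 13350 in Both. *Pdgfra* held most of that sum in Stem, while *Klf4* was the largest part in TGF. *Pdgfra*, *Ly6a* (Sca1), *Cd34* and *Scara5* were lower in TGF than in Stem (log2 fold changes of -3.07, -3.02, -4.18 and -3.61), whereas *Klf4* (0.72) and *Gli1* (3.29, at 0 to 2.09 normalized counts in Stem) were higher. The sum of 6 smooth muscle markers was 10610 to 13320, 22690 to 25150 and 17400 to 18330. Of these, *Tagln* (1.42) and *Acta2* (1.21) were higher in TGF, *Myh11* (-1.58) and *Lmod1* (-0.69) were lower, and *Cnn1* (-0.18, adjusted p = 0.203) and *Smtn* (-0.06, adjusted p = 0.51) did not pass the test.

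The 5 macrophage markers summed to 139.6 to 151.8 normalized counts in Stem, 178.5 to 219.1 in TGF and 290.8 to 307 in Both. *Adgre1* and *Ptprc* were at or under the floor in the mean of every group, *Lyz2* lay between 102 and 152 in all libraries, *Csf1r* had means of 28.5, 76.1 and 138 in the 3 groups, and *Cd68* had means of 3.53, 13.2 and 14.3. *Csf1r* and *Cd68* were higher in TGF than in Stem (adjusted p of 0.000207 and 0.00475), and *Csf1r* and *Lyz2* were higher in Both than in TGF (0.0149 and 0.0363). The 5 endothelial markers summed to 52.16 to 191.6, 37.77 to 63.46 and 35.11 to 45.92. *Emcn* had means of 104, 8.27 and 2.12, *Kdr* 0.721, 26.1 and 27.8, *Pecam1* 7.48, 8.8 and 5.73, *Cdh5* 1.05, 7.8 and 5.88, and *Tie1* was at or under the floor in each group. The part of these genes' cell types in the results that follow was not tested.

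Ribosomal protein genes took a larger share of the counts in TGF than in Stem. The share was 1.97%, 2.04% and 2.02% in the Stem libraries, 2.49%, 2.63% and 2.52% in TGF, and 2.38%, 2.52% and 2.44% in Both. All TGF and Both libraries lay above all Stem libraries, whereas TGF and Both overlapped. The mean share was 2.009% ± 0.0356 (SD, n = 3) in Stem, 2.547% ± 0.0699 in TGF and 2.444% ± 0.072 in Both, which is a difference of 26.7% from Stem to TGF and of -4.04% from TGF to Both. Both subunits took part: the large-subunit genes held 1.144%, 1.455% and 1.397% of the counts in Stem, TGF and Both, and the small-subunit genes 0.8658%, 1.092% and 1.047%. In bulk samples such as these, fewer cells of a type and less RNA per cell cannot be told apart.

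**Figure D1:**
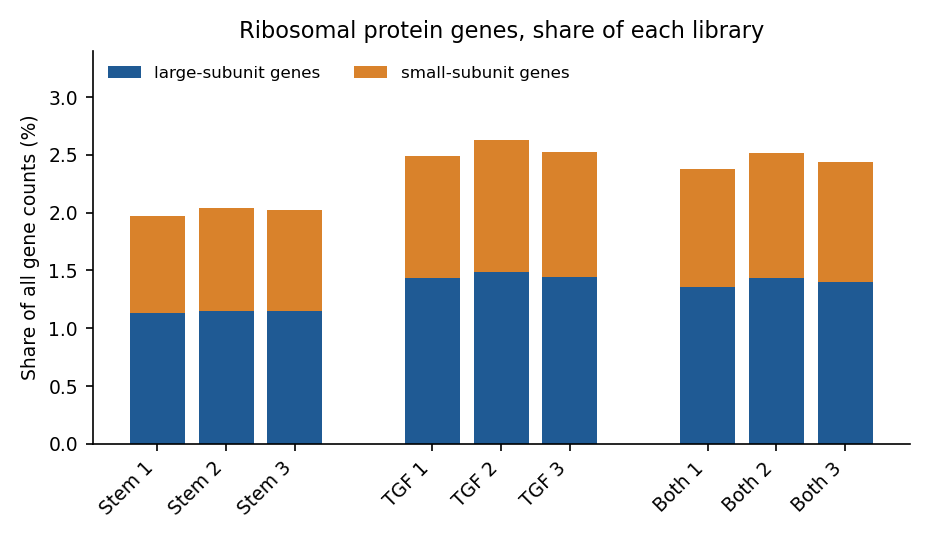
Share of all gene counts (%) that fell on the ribosomal protein genes in each of the 9 libraries, with large-subunit genes in blue and small-subunit genes in orange stacked above them. The bars of Stem end between 1.97% and 2.04%, and those of TGF and Both between 2.38% and 2.63%.

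Gene by gene, 76 of the 79 tested members were higher in TGF than in Stem at an adjusted p below 0.05 and 0 were lower (edgeR's quasi-likelihood test, Benjamini-Hochberg adjustment over all genes tested). Among all genes tested, 37.3% were called higher and 37.7% lower. The median log2 fold change of the members was 0.42 (1.34-fold), with a range from 0.02 to 1.05, an SD over members of 0.207 and a median standard error of 0.0545, and the median of all genes tested was near 0. All 79 fitted changes were above 0, which held for 49.8% of all genes, and in 70 members every TGF library lay above every Stem library, which held for 38.1% of all genes. The change was moderate: 1 member passed the study's minimum of a log2 fold change of 1, against 10.6% of all genes.

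These sizes depend on whether GC content and transcript length are corrected for together. The tested members are short, with a median main transcript of 780 bases against 2810 for all genes tested, and a median GC content of 51.61% against 49.85%. After the average relation of counts to GC content and transcript length in each library was removed, 45 members were higher and 4 lower in TGF, with a median log2 fold change of 0.20, while 37% of all genes were called higher and 37.3% lower. The 4 lower calls were *Rps4l*, *Rps15*, *Rpl36* and *Rps21*. The parts of GC content and of length in this drop were not separated. Such a correction also removes any true difference that genes of like GC content and length share, so both medians are given. Values of genes outside the symbol rule are given without this correction.

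**Figure D2:**
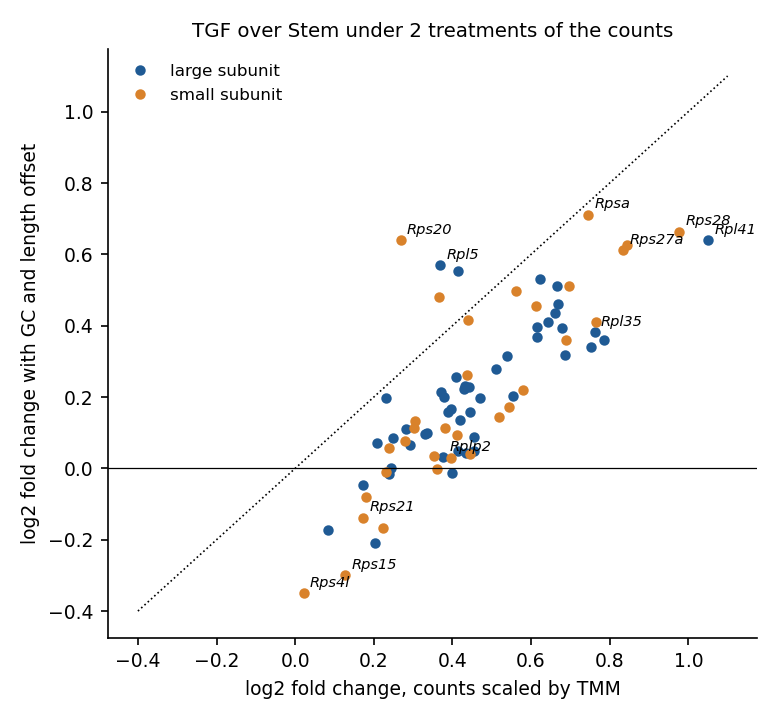
Log2 fold change of each tested member between Stem and TGF without (horizontal) and with (vertical) the correction for GC content and transcript length, with large-subunit members in blue, small-subunit members in orange and equality as a dotted line. Most points lie under the line, and 67 of 79 stay above 0. The 4 above the line (*Rpl5*, *Rpl15*, *Rps15a* and *Rps20*) have annotated main transcripts of 1922 to 5179 bases. Their GC contents are 42.74%, 43.24%, 45.38% and 41.26%. With coding length in place of transcript length in the correction (not drawn), these 4 were at 0.41, 0.35, 0.15 and 0.12.

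Among the small-subunit members, 30 of 32 were higher in TGF, with a median log2 fold change of 0.40, beside 37.3% of all genes tested called higher. Among the large-subunit members it was 46 of 47, with a median of 0.43. The SD among members was 0.232 in the small and 0.191 in the large subunit. The difference between the 2 medians was not tested. The middle of the order, between its quartiles, ran from 0.304 to 0.614.

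*Rpl41*, which encodes the smallest ribosomal protein, a short helix at the interface of the subunits, had the largest change. Its normalized counts were 8674, 9544 and 9439 in Stem, 19022, 19252 and 19026 in TGF, and 16940, 18204 and 17859 in Both. The groups of TGF and Stem did not overlap, and *Rpl41* was 2.07-fold higher in TGF (log2 fold change 1.05 ± 0.04 (SE), adjusted p = 6.45e-10) and, with the correction for GC content and length, still 0.64 higher on the log2 scale.

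*Rps28* encodes a small protein at the mRNA exit side of the small subunit. Normalized counts of *Rps28* were 1862, 1450 and 2248 in Stem, 3912, 3453 and 3580 in TGF, and 3433, 3018 and 3535 in Both. All TGF libraries lay above all Stem libraries despite a wide spread within Stem (log2 fold change 0.98 ± 0.12, adjusted p = 1.25e-05). Its exons overlap *Kank3* on the other strand.

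*Rps26*, whose protein lines the mRNA exit channel, gave 5720, 6614 and 6439 normalized counts in Stem, 10922, 11776 and 11017 in TGF, and 10111, 10895 and 10690 in Both. It was 1.80-fold higher in TGF (log2 fold change 0.84 ± 0.06, adjusted p = 4.12e-08). *Rps27a*, which is made as a fusion with ubiquitin, gave 4427, 6426 and 5663 in Stem, 9012, 10664 and 9778 in TGF, and 9174, 10294 and 9253 in Both. The Stem values of *Rps27a* were spread but stayed under all others, and the log2 fold change was 0.83 ± 0.11 (adjusted p = 2.08e-05). With the correction for GC content and length, *Rps28*, *Rps26* and *Rps27a* kept log2 fold changes of 0.66, 0.63 and 0.61.

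*Rpl35* encodes a protein at the exit of the peptide tunnel. Its normalized counts were 3977, 3932 and 4290 in Stem, 6663, 7154 and 6870 in TGF, and 6141, 6199 and 6032 in Both. It was higher in TGF than in Stem (log2 fold change 0.76 ± 0.04, adjusted p = 8.94e-09), and it was the 1 member called between TGF and Both. With the correction for GC content and length, the change of *Rpl35* between Stem and TGF was 0.38 (adjusted p = 2.93e-06).

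*Rps2*, a protein at the mRNA entry of the small subunit, gave 22230, 25104 and 22344 normalized counts in Stem, 37382, 41901 and 39046 in TGF, and 36343, 38377 and 36462 in Both (log2 fold change 0.76 ± 0.06, adjusted p = 1.13e-07). *Rpl29*, a large-subunit protein, gave 4183, 5091 and 4282 in Stem, 7488, 8165 and 7183 in TGF, and 6990, 7733 and 7023 in Both (0.75 ± 0.07, adjusted p = 1.66e-06). *Rpl13a*, which is also known for silencing inflammatory mRNAs outside the ribosome, gave 5237, 5356 and 4715 in Stem, 7794, 8373 and 8321 in TGF, and 8057, 8322 and 8177 in Both (0.68 ± 0.05, adjusted p = 1.05e-07). In all 3 genes the Stem libraries lay clearly under the others, and TGF and Both overlapped. With the correction for GC content and length the values were 0.41 for *Rps2*, 0.34 for *Rpl29* and 0.39 for *Rpl13a*. Exons of *Rpl13a* and *Rps2* also hold small nucleolar RNAs, such as *Snord33* and *Snora64*, in the annotation used.

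**Figure D3:**
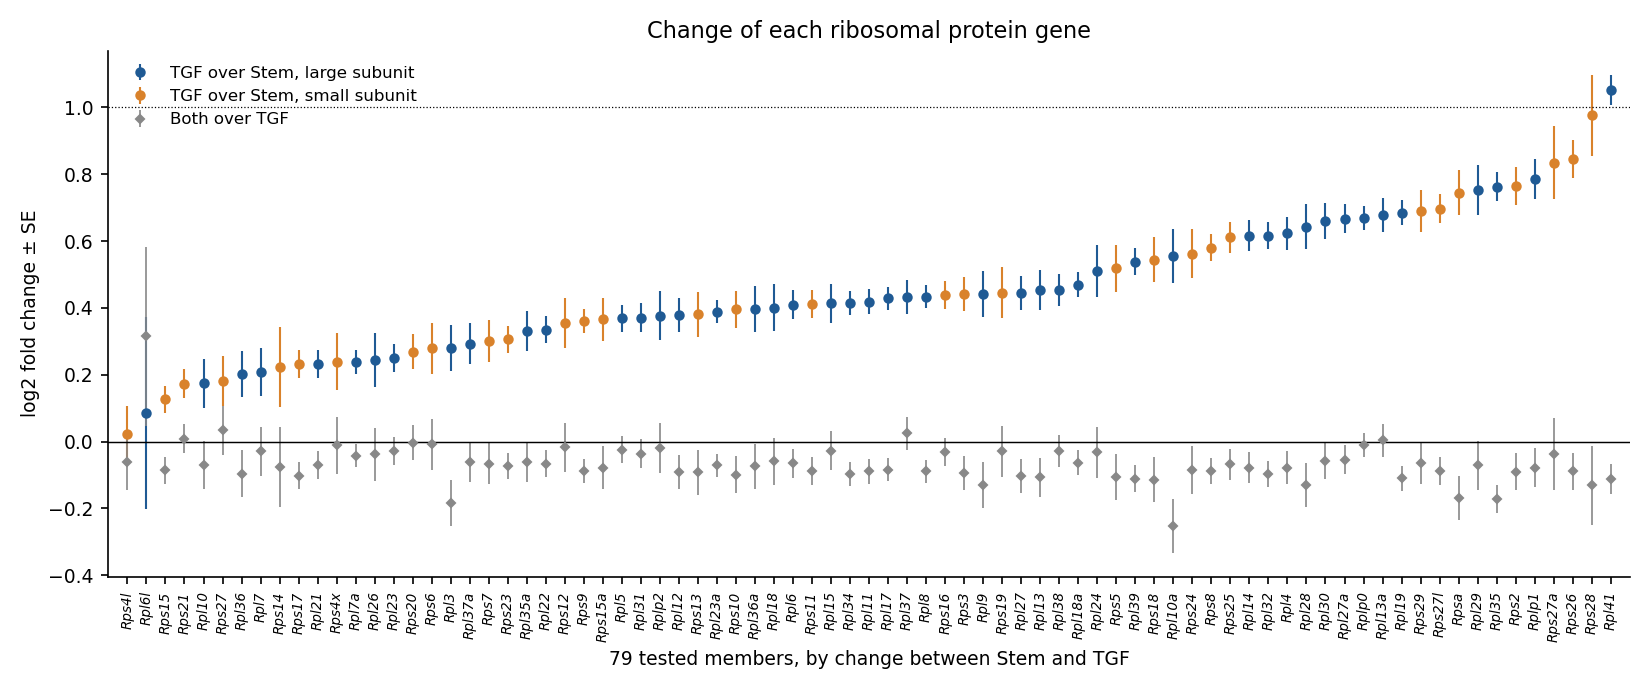
Log2 fold change ± SE of the 79 tested members, ordered by their change between Stem and TGF (circles, blue for the large and orange for the small subunit), with the change between TGF and Both of the same gene as grey diamonds. The circles lie between 0.02 and 1.05 and the diamonds around a median of -0.073; the dotted line marks a log2 fold change of 1.

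Among the members called, *Rps15*, *Rps21*, *Rpl10* and *Rps27* had the smallest changes. *Rps15*, a protein of the head of the small subunit near the decoding site, gave 8214, 7975 and 7849 normalized counts in Stem, 9022, 8762 and 8466 in TGF, and 7986, 8543 and 8201 in Both. All its TGF values exceeded those of Stem, but by a log2 fold change of only 0.13 ± 0.04 (adjusted p = 0.0127), and with the correction for GC content and length it was lower in TGF (-0.30, adjusted p = 6.21e-05). *Rps21* changed by 0.17 ± 0.04 (adjusted p = 0.00329) and reversed to -0.14 with that correction. *Rpl10*, which joins the large subunit late in its maturation, gave 17610, 21720 and 17875 in Stem and 20959, 22569 and 21001 in TGF, so that its groups overlapped (0.17 ± 0.07, adjusted p = 0.0445, and -0.05 with the correction). With total counts in place of TMM scaling, *Rps15*, *Rps21*, *Rpl10* and *Rps27* did not pass (adjusted p of 0.893, 0.246, 0.403 and 0.516). Some of these calls also rested on single libraries: *Rps15* was at an adjusted p of 0.0502 without Stem replicate 3, and *Rpl10* at 0.146, 0.169, 0.0534, 0.132, 0.0569 and 0.0507 without Stem replicate 1, Stem replicate 3, TGF replicates 1, 2 or 3, or Both replicate 3. Without Stem replicate 2, *Rpl10* was instead at 0.28 (adjusted p = 9.51e-05).

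Of the tested members, 3 did not pass the test between Stem and TGF. *Rps14*, a protein of the small-subunit platform, gave 15085, 21890 and 15899 normalized counts in Stem and 18777, 22847 and 20075 in TGF (log2 fold change 0.22 ± 0.12, adjusted p = 0.112). Its second Stem library lay above 2 of the TGF libraries, and without that library *Rps14* was called higher (0.41, adjusted p = 0.000227). With the correction for GC content and length its value was -0.17 (adjusted p = 0.266). *Rps4l* and *Rpl6l* are low-abundance copies of *Rps4x* and *Rpl6* with no coding sequence in the annotation used; *Rps4l* gave 253 to 310 normalized counts over all 9 libraries and *Rpl6l* 15.1 to 34.2, with log2 fold changes of 0.02 ± 0.08 and 0.08 ± 0.29.

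Stem replicate 2 stood somewhat apart from the other Stem libraries among these genes. It deviated from the mean of the other 2 by over 0.25 on the log2 scale in 17 of 79 members, whereas no other library did so in more than 7. Without it the medians were 0.452 from Stem to TGF and 0.385 from Stem to Both on the log2 scale. The differences were thus as large without that library. Replicate 2 was also on the high side in the other groups. Its median log2 deviation from the other libraries of its group was 0.0543 in Stem, 0.0548 in TGF and 0.0632 in Both. In these 3 libraries 51, 67 and 66 of the 79 members were higher. What replicate 2 may share across the groups was not tested.

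**Figure D4:**
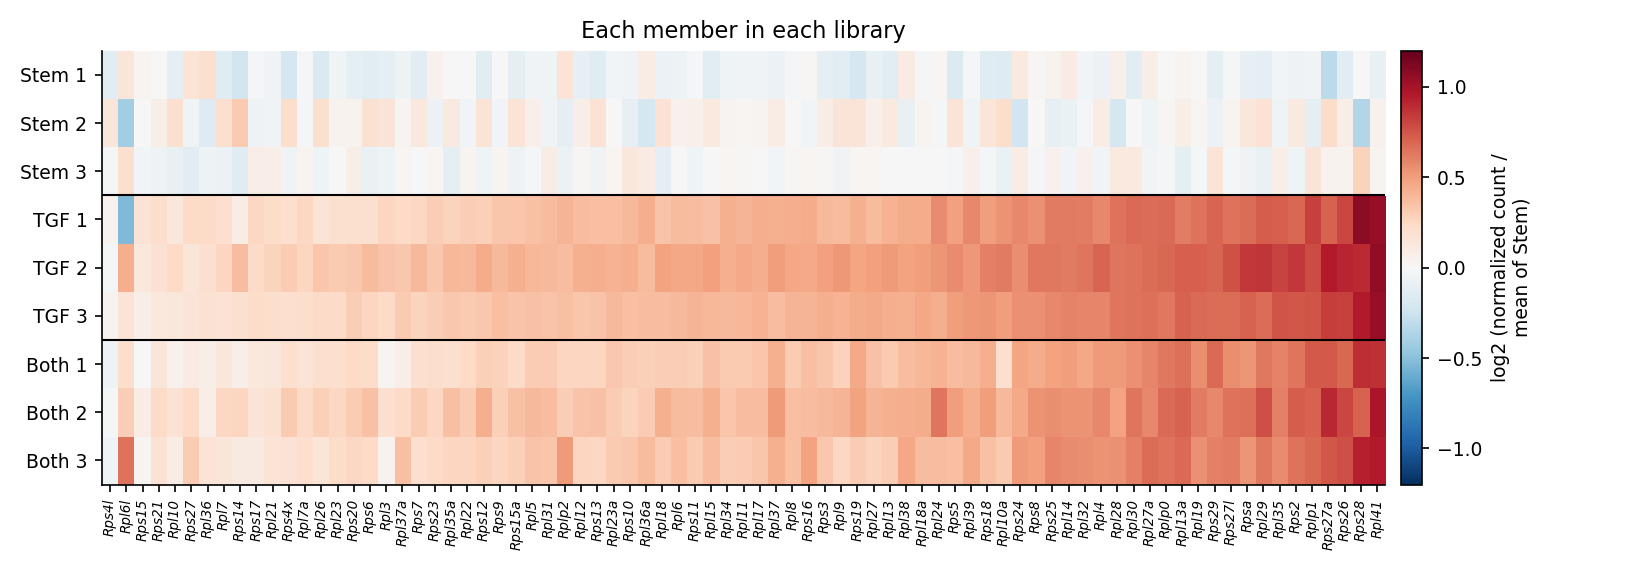
Log2 ratio of each tested member's normalized count to its Stem mean in each of the 9 libraries (rows) and 79 genes (columns, ordered by the change between Stem and TGF), red for higher and blue for lower. The 3 TGF and 3 Both rows are red over nearly all columns, and Stem 2 has the most columns off white among the Stem rows.

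The stalk of the large subunit, which recruits the translation factors, is built from Rplp0 and pairs of Rplp1 and Rplp2. *Rplp0* gave 34047, 34285 and 33511 normalized counts in Stem, 54342, 54869 and 52586 in TGF, and 52741, 54311 and 53448 in Both, with little spread within any group. It was 1.59-fold higher in TGF (log2 fold change 0.67 ± 0.04, adjusted p = 6.05e-09). *Rplp1* gave 10804, 10253 and 12395 in Stem, 19660, 19197 and 18832 in TGF, and 18528, 18187 and 17925 in Both (log2 fold change 0.79 ± 0.06, adjusted p = 1.26e-07). *Rplp2*, the partner of Rplp1 in the stalk, gave 5734, 4779 and 4887 in Stem, 6810, 6615 and 6577 in TGF, and 6145, 6286 and 7295 in Both, and changed less (0.38 ± 0.07, adjusted p = 0.00059). With the correction for GC content and length, *Rplp0* and *Rplp1* stayed at 0.46 and 0.36, whereas *Rplp2* was at 0.03 (adjusted p = 0.72).

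*Rpsa* encodes a protein of the small-subunit head that is also known as a laminin receptor. It gave 20498, 24147 and 21350 normalized counts in Stem, 35065, 39579 and 35936 in TGF, and 31852, 34775 and 31712 in Both. The TGF values were all above those of Stem and, by a small margin, of Both. Its log2 fold change between Stem and TGF was 0.74 ± 0.07 (adjusted p = 6.4e-07), nearly the same with the correction for GC content and length (0.71). *Rpsa* has an annotated main transcript of 1938 bases, longer than that of most members.

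Rpl5 and Rpl11 bind the 5S ribosomal RNA, and the free complex is known to hold back Mdm2, the ubiquitin ligase of p53. *Rpl5* gave 19370, 20766 and 19735 normalized counts in Stem, 25438, 26371 and 25530 in TGF, and 24632, 26136 and 25277 in Both (log2 fold change 0.37 ± 0.04, adjusted p = 3.96e-06). *Rpl11* gave 8222, 8592 and 8560 in Stem, 11205, 11589 and 11114 in TGF, and 10517, 10959 and 10413 in Both (0.42 ± 0.04, adjusted p = 6.92e-07). Both genes were higher in every TGF library than in any Stem library. With the correction for GC content and length the values were 0.57 for *Rpl5* (adjusted p = 1.81e-08) and 0.14 for *Rpl11* (adjusted p = 0.00853). With coding length in place of transcript length in that correction, they were 0.41 (adjusted p = 2.92e-07) and 0.21 (adjusted p = 0.000221).

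*Rps6*, the classic substrate of S6 kinase downstream of mTORC1, gave 13115, 16342 and 13630 normalized counts in Stem, 16439, 18694 and 17157 in TGF, and 16785, 18278 and 16947 in Both. The highest Stem value nearly reached the lowest TGF value, and the log2 fold change was 0.28 ± 0.08 (adjusted p = 0.00556). *Rps19*, the gene most often affected in Diamond-Blackfan anemia, changed by 0.45 ± 0.08 (adjusted p = 0.000177) and *Rpl22* by 0.33 ± 0.04 (adjusted p = 8.25e-06). With the correction for GC content and length the values were 0.08 for *Rps6*, 0.04 for *Rps19* and 0.10 for *Rpl22*, of which only *Rpl22* (adjusted p = 0.0274) passed.

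Several ribosomal proteins have a paralog of restricted use, and some of these had almost no reads in the cells. *Rpl3l*, the form of striated muscle, had 1 count over all 9 libraries, and *Rpl10l*, a testis form, also had 1. *Rpl39l*, another form of the testis, had 12 counts, and the processed pseudogene *Rpl32l* had 8, so that none of the 4 could be tested. The widely used forms were abundant: *Rpl3* gave 16911, 20349 and 17486 normalized counts in Stem and 21801, 23163 and 21538 in TGF (log2 fold change 0.28 ± 0.07, adjusted p = 0.00273, and 0.11 with the correction for GC content and length, adjusted p = 0.179). *Rpl39* changed by 0.54 ± 0.04 (adjusted p = 9.8e-08), and by 0.32 with that correction (adjusted p = 3.99e-06).

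The pair *Rps27* and *Rps27l* was different, as both were expressed. *Rps27l*, a paralog known as a p53 target, gave 2418, 2517 and 2429 normalized counts in Stem, 3857, 4172 and 3903 in TGF, and 3605, 3862 and 3757 in Both (log2 fold change 0.70 ± 0.04, adjusted p = 2.05e-08). *Rps27* gave 1641, 1412 and 1347 in Stem, 1735, 1619 and 1635 in TGF, and 1568, 1726 and 1812 in Both (0.18 ± 0.07, adjusted p = 0.0425, with overlapping groups). That call of *Rps27* was lost without Stem replicate 2 or 3 or TGF replicate 1 or 3 (adjusted p of 0.0828, 0.172, 0.117 and 0.0593), and with the correction for GC content and length *Rps27* was at -0.08 (adjusted p = 0.382). Under the same correction *Rps27l* kept a log2 fold change of 0.51 (adjusted p = 2.64e-07). The log2 ratio of *Rps27l* to *Rps27* was 0.75 ± 0.16 (SD, n = 3) in Stem, 1.26 ± 0.11 in TGF and 1.14 ± 0.08 in Both. The ratio was higher in all 3 TGF libraries than in any Stem library, which an exact two-sided permutation test puts at p = 0.1, the smallest value that 3 against 3 allow (0.2 after adjustment over the 4 pairs with enough counts). Reads of near-identical copies may have been assigned to either gene.

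*Rps4x*, the X-linked small-subunit protein whose copy *Rps4l* was named above, gave 20095, 26779 and 22418 normalized counts in Stem and 26612, 28581 and 26579 in TGF (log2 fold change 0.24 ± 0.08, adjusted p = 0.022), a call that was lost without Stem replicate 1, Stem replicate 3 or TGF replicate 2 (adjusted p of 0.0746, 0.0727 and 0.071). The log2 fold change of *Rps4x* was 0.15 without Stem replicate 1 and 0.36 without Stem replicate 2 (adjusted p = 6.21e-05). The call was also lost with total counts (0.12, adjusted p = 0.138) and with the correction for GC content and length (0.06, adjusted p = 0.573). The log2 ratio of *Rps4l* to *Rps4x* was -6.36, -6.59 and -6.64 in Stem, TGF and Both. *Rpl22l1*, a paralog of *Rpl22* that the symbol rule does not take, gave 1098, 1389 and 1236 normalized counts in Stem, 1430, 1598 and 1537 in TGF, and 1193, 1247 and 1164 in Both. It was 0.30 ± 0.08 higher in TGF than in Stem (adjusted p = 0.00354) and 0.34 ± 0.07 lower in Both than in TGF on the log2 scale (adjusted p = 0.015), with all Both libraries under all TGF libraries. The log2 ratio of *Rpl22l1* to *Rpl22* was -2.64, -2.67 and -2.95 in Stem, TGF and Both, and its difference between TGF and Both had an exact two-sided permutation p of 0.1, again the smallest possible (0.4 after adjustment over the 4 pairs).

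Levels can be compared between genes only per length of transcript. Per kilobase of main transcript, the 77 tested members with a coding sequence had a median level of 11091 normalized counts in Stem, with the 10th and 90th percentiles at 4279 and 21234, and medians of 15224 in TGF and 14437 in Both. *Rps12*, *Rps14* and *Rplp0* headed the order in Stem, and *Rpl24* was last with 554 per kilobase. Per kilobase of coding sequence, *Rpl41*, *Rps12* and *Rpl23* headed the order in Stem, and *Rpl24* was last again. *Rpl24* shares exons on the same strand with the gene *Gm28037*, which is listed at 0 counts in all libraries, and the effect of that overlap on its count was not tested. Despite its low count, *Rpl24* changed by 0.51 ± 0.08 between Stem and TGF (adjusted p = 8.29e-05). Its change was 0.28 with the correction for GC content and length (adjusted p = 0.00773). Across the 77 members, the change between Stem and TGF had a Spearman correlation of -0.0472 with coding length, 0.21 with GC content, -0.235 with the Stem level and -0.0669 with the number of pseudogene copies, given as a description of genes that share libraries and depth.

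The ribosome also holds proteins whose symbols the rule does not take. *Rps3a1*, a small-subunit protein, gave 19066, 24309 and 20395 normalized counts in Stem, 27502, 29697 and 27686 in TGF, and 25883, 28893 and 27035 in Both (log2 fold change between Stem and TGF 0.41 ± 0.08, adjusted p = 0.000391). *Fau*, which encodes a small-subunit protein fused to a ubiquitin-like sequence, changed by 0.43 ± 0.04 (adjusted p = 1.18e-06). *Rack1*, the signaling scaffold on the small-subunit head, gave 13458, 15104 and 14288 in Stem and 23154, 23940 and 23114 in TGF (0.71 ± 0.04, adjusted p = 2.22e-08). Of a list of 12 genes outside the rule, which also holds low-abundance copies such as the pseudogene *Rpl9-ps6*, 7 were higher in TGF and 0 lower, with a median log2 fold change of 0.47, beside 37.3% higher and 37.7% lower among all genes. *Rpl37rt*, a copy of *Rpl37* with 21.7 to 30.3 normalized counts in Stem and 46.9 to 61.9 in TGF, had the largest called change of this list (0.99 ± 0.20, adjusted p = 0.000627).

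With PFI-3, the members were close to their TGF levels. Between TGF and Both, 0 of 79 were called higher and 1 lower, against 3.54% of all genes higher and 5.38% lower. The count of lower members was 5 without Stem replicate 2, 2 without Stem replicate 1, and 0 without TGF replicates 2 or 3 or Both replicates 1 or 3. It was 7 in a fit of only the 6 libraries compared, and 7 with a block for replicate number. The 5.38% belongs to the main fit, and the shares of all genes in these alternatives are not given here. The median log2 fold change was -0.073 (a 4.94% lower level), with 74 of 79 fitted changes below 0 against 50.5% of all genes. At an unadjusted p below 0.05, 15 members were lower (12.5% of all genes) and 0 higher (11.5%). In 27 members all Both libraries lay under all TGF libraries, which held for 17.4% of all genes. Per library, the median difference from the TGF mean was -0.105, -0.0379 and -0.0798 in the 3 Both libraries, so that it was lower in 3 of 3 but small in each. With the correction for GC content and length, the median was -0.0257 and 0 members were called.

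The 1 called member was *Rpl35*, whose counts in each library are given above and whose exons overlap *Arpc5l* and *Wdr38* on the other strand. It was 0.17 ± 0.04 lower in Both on the log2 scale (adjusted p = 0.0274), and all 3 Both libraries lay under all 3 TGF libraries. Without TGF replicate 2, TGF replicate 3, Both replicate 1 or Both replicate 3 it did not pass (adjusted p of 0.129, 0.0904, 0.0903 and 0.1), nor with total counts (0.0687) or the GC and length correction (0.138). *Rpl10a*, a protein of the stalk on the side of the large subunit where tRNAs leave, gave 8939, 9481 and 8748 normalized counts in TGF and 7094, 8053 and 7661 in Both. Its groups did not overlap and its difference was larger, but with a wider error (-0.25 ± 0.08, adjusted p = 0.0749). *Rpl3* and *Rpsa* showed -0.18 ± 0.07 (adjusted p = 0.122) and -0.17 ± 0.07 (adjusted p = 0.142). In a fit of only the TGF and Both libraries these 3 genes were called lower, with adjusted p of 0.0054 for *Rpl10a*, 0.0263 for *Rpl3* and 0.0464 for *Rpsa*, and likewise in the full fit without Stem replicate 2 (0.00398, 0.0215 and 0.0411).

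The comparison of Stem with Both shares its libraries with the other 2 comparisons and is given for its own values. In Both, 72 of 79 members were higher than in Stem and 0 lower, while 36.6% of all genes were called in each direction. The median log2 fold change was 0.34 (1.27-fold), with a range from -0.04 to 0.94, and 0 members passed a log2 fold change of 1 (9.55% of all genes higher). *Rpl41*, *Rps28*, *Rps27a* and *Rps26* again led, with log2 fold changes of 0.94, 0.85, 0.80 and 0.76. With the correction for GC content and length, 42 members were higher and 3 were lower (median 0.14). The 36.6% belongs to the fit without this correction, and the share of all genes in the corrected fit is not given here.

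Genes that work with the ribosome were counted from lists, and each count stands beside the 37.3% of all genes tested that were called higher in TGF than in Stem, the 37.7% called lower and a median near 0. Of 17 translation factors and other genes with TOP mRNAs, 14 were higher in TGF than in Stem and 0 lower, with a median log2 fold change of 0.48. *Eef1a1*, the elongation factor that brings aminoacyl-tRNA, gave 130690, 140340 and 133790 normalized counts in Stem and 184730, 193700 and 187030 in TGF (0.48 ± 0.04, adjusted p = 7.57e-07). *Eef2*, the translocation factor, changed by 0.57 ± 0.04 (adjusted p = 4.36e-08) and *Npm1*, a nucleolar chaperone, by 0.59 ± 0.07 (adjusted p = 1.04e-05). *Pabpc1*, which binds poly(A) tails, gave 19385, 20346 and 19720 in Stem and 40284, 42537 and 39512 in TGF (1.04 ± 0.04, adjusted p = 4.65e-10), and *Gas5*, a noncoding host of small nucleolar RNAs with a TOP start, changed by 1.17 ± 0.05 (adjusted p = 7.38e-10). In Both, 3 of the 17 were lower than in TGF (5.38% of all genes), among them *Gas5* (-0.22 ± 0.05, adjusted p = 0.0178) and *Eif4b*, a helicase cofactor (-0.15 ± 0.04, adjusted p = 0.0391).

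Of 28 other initiation factors, 24 were higher in TGF and 3 were lower (median log2 fold change 0.39; all genes 37.3% and 37.7%). *Eif2s2*, the β subunit of eIF2, gave 2934, 3028 and 3037 normalized counts in Stem and 6768, 7294 and 7057 in TGF (1.23 ± 0.05, adjusted p = 1.87e-10), and *Eif2b2* changed by 1.02 ± 0.08 (adjusted p = 1.28e-07). *Eif4a2*, an RNA helicase, was lower (-0.73 ± 0.05, adjusted p = 7.79e-08), as was the cap-binding factor *Eif4e* (-0.37 ± 0.05, adjusted p = 5.78e-05). In Both, *Eif2s2* was lower than in TGF (-0.21 ± 0.04, adjusted p = 0.0139). The factors thus did not all move in 1 direction.

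Ribosome biogenesis factors were higher in 32 of 48 and lower in 3, with a median log2 fold change of 0.26, where 37.3% and 37.7% of all genes were called. *Pno1* and *Nhp2*, which act in small-subunit assembly and in pseudouridylation, had the largest rises. *Pno1* changed by 1.17 ± 0.07 (adjusted p = 1.3e-08), *Nhp2* gave 401, 365 and 357 normalized counts in Stem and 795, 850 and 807 in TGF (adjusted p = 9.89e-09), and *Ncl* (nucleolin) changed by 0.41 ± 0.04 (adjusted p = 2.1e-06). *Ddx10* and *Lsg1* were lower (-0.35 and -0.17), and *Tsr1* was the 1 factor called higher in Both than in TGF (0.14 ± 0.04, adjusted p = 0.0486). Among RNA polymerase I and its factors, which make the ribosomal RNA, 4 of 12 were higher and 3 were lower (median -0.02), beside 37.3% and 37.7% of all genes. *Polr1d* changed by 0.60 ± 0.05 and *Rrn3* by 0.44 ± 0.04, whereas *Taf1a* and *Polr1b* were lower (-0.48 and -0.23). Of the 77 tested mitochondrial ribosomal proteins, which serve a separate ribosome, 56 were higher and 3 were lower (median 0.32, beside 37.3% and 37.7% of all genes), with *Mrps18b* and *Mrpl54* at 1.00 each, *Mrps6* at -1.17 and *Mrps35* at -0.19.

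Regulators of ribosome supply were called in both directions, 12 of 26 higher and 12 lower (median 0.11), beside 37.3% and 37.7% of all genes. *Eif4ebp1*, which restrains eIF4E and is inactivated by mTORC1, gave 318, 271 and 326 normalized counts in Stem and 1537, 1351 and 1481 in TGF (2.26 ± 0.08, adjusted p = 1.09e-10). *Ddit4*, an inhibitor of mTORC1, was higher as well (1.99 ± 0.09, adjusted p = 1.72e-09), while *Deptor* and *Sesn1*, also inhibitors of that kinase pathway, were lower (-1.79 ± 0.09 and -1.04 ± 0.06). *Mtor* itself was lower in TGF (-0.62 ± 0.05, adjusted p = 1.36e-07) and *Larp1* higher (0.54 ± 0.04, adjusted p = 2.09e-07). *Myc* gave 299, 281 and 314 in Stem, 431, 539 and 458 in TGF, and 364, 402 and 372 in Both. It was 0.67 ± 0.09 higher in TGF than in Stem (adjusted p = 2.73e-05) and 0.33 ± 0.09 lower in Both than in TGF (adjusted p = 0.0388). *Sesn2* was also lower in Both (-0.38 ± 0.04, adjusted p = 0.000173), and *Rps6kb1*, the S6 kinase, higher (0.19 ± 0.04, adjusted p = 0.0101).

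Of a list of 11 genes put together for chaperones of ribosomal proteins and the p53 link, 4 were higher in TGF and 3 lower, beside the 37.3% and 37.7% of all genes. *Cdkn1a*, the p21 inhibitor of the cell cycle and a p53 target, gave 3334, 3196 and 3114 normalized counts in Stem, 12418, 12844 and 12204 in TGF, and 9061, 9578 and 9140 in Both. It was 1.96 ± 0.04 higher in TGF than in Stem (adjusted p = 1.88e-12) and 0.43 ± 0.04 lower in Both than in TGF (adjusted p = 7.82e-05), with no overlap in either comparison. *Mdm2* changed by 1.03 ± 0.04 between Stem and TGF (adjusted p = 1.67e-10), and *Tsr2*, the chaperone of Rps26, by -0.24 ± 0.05 (adjusted p = 0.00167). *Aar2*, which is on the list but was not checked here as a chaperone of ribosomal proteins, changed by -0.14 ± 0.05 (adjusted p = 0.0354).

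**Figure D5:**
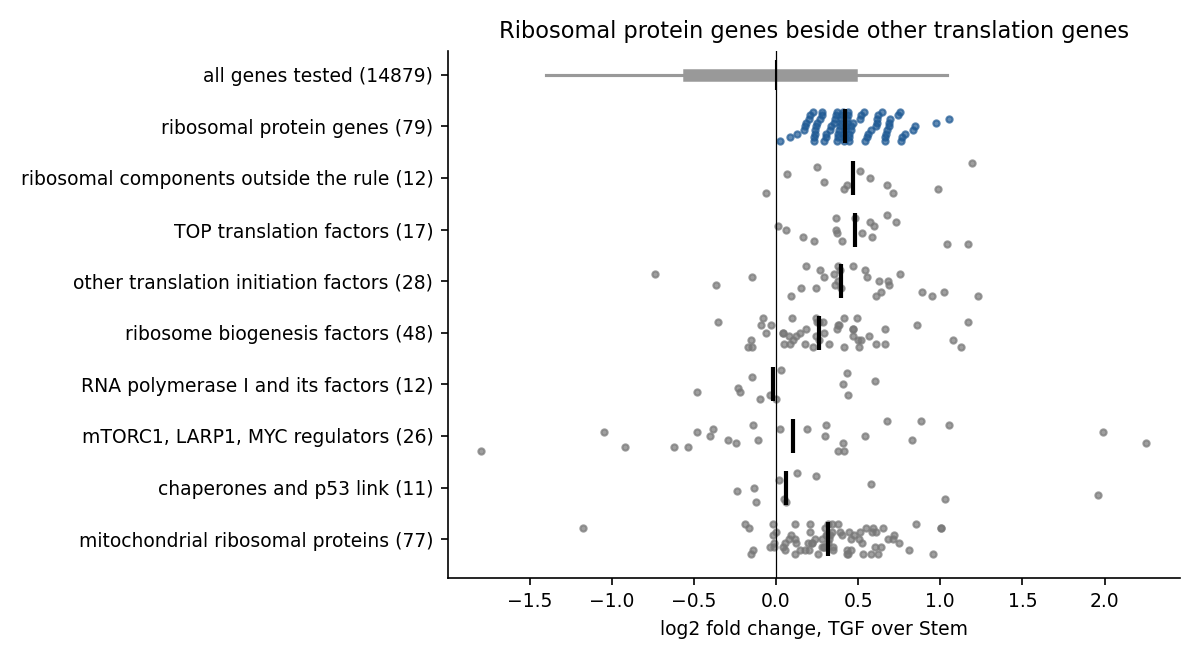
Log2 fold change between Stem and TGF (horizontal) of the genes of each list (rows, number of tested genes in parentheses), with each point a gene and each vertical tick a median. The top row gives the 10th to 90th (thin) and 25th to 75th (thick) percentiles of all 14879 genes tested; the ribosomal protein genes, in blue, lie between 0.02 and 1.05, while the regulators spread from -1.79 to 2.26.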

How the data were processed

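RNA-Seq (ribosome-depleted total RNA, paired ends) was measured in 9 libraries. The deposited values are raw read counts per Ensembl gene, which the authors made against GRCm39 without normalization. The submitters' processing notes name HISAT2 2.2.1, SAMtools 1.13 and HTSeq 0.11.3, whereas the study's methods name Flexbar and STAR; the strand setting and how multiply aligned reads were counted are not given in the sources used here. The 300 pseudogene entries of these families held 0.44% to 0.51% as many counts as the members.

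Counts were tested with edgeR 4.0.16 in R 4.3.3: filterByExpr, TMM, 1 quasi-likelihood fit that held the 3 groups and no covariate, and adjustment over all 14879 genes. Normalized counts are scaled to 41184338 per library, at which 3 counts equal 2.63 to 3.26. The study's methods name DESeq2, which was run as an alternative (1.42.0). SDs and p-values measure the spread between libraries. Transcript lengths, GC content and overlaps came from GENCODE M21 by gene identifier, start sites from RefSeq on GRCm38.p6; no GRCm39 coordinates are given. On simulated Stem and TGF counts (14879 genes, 200 changed), edgeR recovered 48% of genes changed by a log2 fold change of 0.3. It recovered 98% at 0.6 and 100% at 1, and 4.95% of calls were false. The simulation gave all genes the same dispersion and held no relation of counts to GC content or length. In the data, 5548 genes were called higher and 5610 lower in TGF than in Stem. The simulated rates therefore check the code and do not describe the real fit.

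The members and the lists were chosen with earlier results of these data known. Named were the 4 largest called changes with at least 100 mean normalized counts, members with a restricted counterpart, the stalk proteins, *Rpsa*, *Rps6*, *Rpl5*, *Rpl11*, *Rps19*, *Rpl22*, all untested members, components outside the rule, and, of each list, the 2 largest calls in each direction between Stem and TGF and between TGF and Both, with *Myc*, *Larp1*, *Mtor*, *Npm1*, *Ncl*, *Eef1a1* and *Eef2*; other members were named after their values were seen. Adipocyte markers (3 genes) summed to at most 4.35 normalized counts. Alternatives were other scalings, filters, tools and fits, a replicate block, a GC and length offset, other fold thresholds and leaving out each library. Figures used matplotlib 3.10.9. CUT&RUN and the other experiments were not analysed here; 1 gene of the lists is not reported by name.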

Additional observations from a re-analysis of the deposited data

How the results depend on the processing

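The direction of the members' median was the same under all 24 alternatives of each comparison: 0.181 to 0.452 between Stem and TGF, -0.0882 to -0.0256 between TGF and Both, and 0.14 to 0.385 between Stem and Both on the log2 scale. The sizes and counts depended on the correction for GC content and length and on the scaling. Unless stated otherwise, the shares of all genes called belong to the main fit and not to the alternatives. Without 1 library each, the median between Stem and TGF ran from 0.398 to 0.452, and 69 to 76 members were called higher; the lowest count came without Stem replicate 3. Between Stem and Both these ranges were 0.322 to 0.385 and 68 to 75. The highest medians came without Stem replicate 2. Between TGF and Both, 0 to 5 members were called lower: 2 without Stem replicate 1, 5 without Stem replicate 2, and 0 without TGF replicates 2 or 3 or Both replicates 1 or 3. The cause was not tested.

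With total counts in place of TMM, all genes tested had a median of -0.122 (Stem versus TGF) and -0.113 (Stem versus Both), the members' medians were 0.299 and 0.237, and 0 members were called between TGF and Both. With the offset for GC content and length, 45 members were higher and 4 lower in TGF than in Stem (median 0.197), 42 and 3 in Both than in Stem (median 0.14), and 0 were lower in Both than in TGF (median -0.0257). With the offset on coding length, added after the data were seen, 52 were higher and 3 lower in TGF (median 0.181), 46 and 2 in Both over Stem (median 0.14), and 0 were lower in Both than in TGF (median -0.0383). Among named members, *Rps4l* (-0.35), *Rps15* (-0.3), *Rps21* (-0.138), *Rpl10* (-0.0454), *Rps27* (-0.0791) and *Rpl36* (-0.208) turned to lower in TGF than in Stem under the first offset, and *Rps15* (-0.307), *Rps21* (-0.058), *Rpl36* (-0.235), *Rpl10* (-0.0701), *Rpl3* (-0.0432) and *Rps14* (-0.162) to below 0 in Both against Stem. The uncalled *Rps14* (-0.167) and *Rpl6l* (-0.171) were also below 0 between Stem and TGF under that offset. Under the coding-length offset the reversed values were -0.285 for *Rps15*, -0.128 for *Rps21*, -0.111 for *Rps27*, -0.233 for *Rpl36*, -0.113 for the uncalled *Rps14* and -0.00875 for *Rplp2* between Stem and TGF, and -0.315, -0.0644, -0.0317, -0.2765, -0.132 and -0.0142 for *Rps15*, *Rps21*, *Rps27*, *Rpl36*, *Rps14* and *Rpl10* between Stem and Both.

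Same-numbered libraries of different groups deviated together in part: over 8808 genes the correlations were 0.34, 0.46 and 0.092 for Stem and TGF, 0.16, 0.51 and -0.022 for Stem and Both, and 0.25, 0.57 and 0.081 for TGF and Both. The labels also give these libraries the letters A, B and C in each group, but do not state what libraries of the same letter share. Not every pair exceeded 0.1, and not every sample correlated best with its own number, so the numbers were not taken as pairs. A matched design was not excluded by this. With the replicate block, 7 members were lower in Both than in TGF (*Rpl35*, *Rpl19*, *Rpsa*, *Rpl10a*, *Rpl9*, *Rpl3* and *Rpl41*), and *Rps14* was called higher in TGF than in Stem (adjusted p = 0.00184). That block also called *Rpl10*, *Rps14* and *Rpl3* higher in Both than in Stem (adjusted p of 0.0306, 0.0175 and 0.027). With the GC and length offset and the replicate block, 53 were higher and 4 lower in TGF than in Stem (median 0.197), 50 were higher and 3 lower in Both than in Stem (median 0.142), and 3 were lower in Both than in TGF (median -0.0256). Under that block, reversed values among named members were -0.348 for *Rps4l*, -0.299 for *Rps15*, -0.136 for *Rps21*, -0.0383 for *Rpl10* and -0.0775 for *Rps27* between Stem and TGF, and -0.307 and -0.0561 for *Rps15* and *Rps21* between Stem and Both; *Rpl36* was among the members called lower in both comparisons.

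Members called lower in Both than in TGF numbered 3 with DESeq2, 4 without a filter, 7 in a fit of only the 6 libraries compared, and 0 with the TREAT test against 1.1-fold. With the study's minimum log2 fold change of 1, 1 member was called between Stem and TGF, 0 between Stem and Both and 0 between TGF and Both. Among the values of single named members, 564 of 648 kept their call between Stem and TGF, 619 of 648 between TGF and Both, and 580 of 648 between Stem and Both. A kept call means called in the same direction as in the main fit, or not called in either fit. Values not called in either fit could change sign and still count as kept. The spread of levels per kilobase in Stem (90th over 10th percentile) was 4.96 by main transcript, 3.57 by coding length and 7.54 by longest transcript.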
